A study of Mus musculus with 2 samples.

Results

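Transcripts of 10 genes that act where a cell leaves G1 and begins to copy its DNA were followed in single cells of mouse A20 tumours after TAK-981 and after vehicle. The genes are Mcm2, Mcm3, Mcm4, Mcm5, Mcm6, Mcm7, Cdc6, Ccne1, Ccne2 and Ung, taken from the deposited count matrices by their symbols, 10 of 28692 genes listed. All 10 were found. TAK-981 is a small-molecule inhibitor of SUMO activation, the first step by which the small modifier SUMO is joined to its target proteins. A20 is a mouse lymphoma line of B cell origin from the BALB/c strain, here grown under the skin of BALB/c hosts (Balb/c in the labels).

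The TAK-981 library came from tumour taken 8 h after intravenous TAK-981 at 7.5 mg/kg, and the vehicle library from tumour taken 8 h after intravenous 20% HPbCD, a cyclodextrin. The tumours were broken up mechanically, dead cells were removed, and RNA of single cells was read with the 10x Genomics 5' kit, which counts unique molecular identifiers (UMIs), one for each captured RNA molecule. There was 1 library per arm, and the labels do not state how many mice each library came from. No difference below therefore has a replicate check, and no p-value is given. Intervals are exact and describe counting error alone; mice and cells may differ by more.

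The Mcm2 to Mcm7 proteins form the ring-shaped helicase that opens DNA for replication. In G1 the origin recognition complex, Cdc6 and Cdt1 load this ring onto origins, a step called licensing. Cyclins E, encoded by Ccne1 and Ccne2, activate the kinase Cdk2 as cells pass from G1 into S phase. Ung encodes the uracil-DNA glycosylase, which removes uracil from DNA as the first step of base excision repair. Genes of this kind are well-known targets of the E2F transcription factors, whose activity is held back by the retinoblastoma protein family until late G1.

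Promoter sequences are shown first for the members on which the comparisons turn, since E2F acts through short sites near the start of transcription. RefSeq promoter windows of build GRCm38.p6, from 250 bases before to 50 bases after the start, were matched by symbol for 8 of the 10 genes, and Mcm4 and Ccne2 had no entry. The authors' own build is not given here, so these sequences describe the reference genes and not the counted reads. The 250 bases before the start are printed 5' to 3' on the gene's own strand for Mcm6 (chr1:128359706-128359955, minus strand), Mcm5 (chr8:75109259-75109508, plus strand) and Ung (chr5:114130185-114130434, plus strand), the members with the lowest ratios in A20 cells, and for Ccne1 (chr7:38107491-38107740, minus strand), the one with the lowest ratio in T cells. Capitals mark E2F-type matches, that is TTTGGCGC, TTTCGCGC, TTTCCCGC or TTTGCCGC on either strand.

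Mcm6: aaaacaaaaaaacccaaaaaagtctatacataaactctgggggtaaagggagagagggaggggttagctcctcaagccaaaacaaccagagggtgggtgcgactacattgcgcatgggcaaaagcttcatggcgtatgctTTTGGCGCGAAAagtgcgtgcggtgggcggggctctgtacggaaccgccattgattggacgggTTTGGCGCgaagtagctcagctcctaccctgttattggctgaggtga

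Mcm5: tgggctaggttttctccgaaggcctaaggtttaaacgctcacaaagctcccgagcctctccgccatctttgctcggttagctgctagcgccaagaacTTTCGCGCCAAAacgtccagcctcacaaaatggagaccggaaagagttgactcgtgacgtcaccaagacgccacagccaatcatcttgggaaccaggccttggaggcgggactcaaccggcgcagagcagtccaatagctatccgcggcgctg

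Ung: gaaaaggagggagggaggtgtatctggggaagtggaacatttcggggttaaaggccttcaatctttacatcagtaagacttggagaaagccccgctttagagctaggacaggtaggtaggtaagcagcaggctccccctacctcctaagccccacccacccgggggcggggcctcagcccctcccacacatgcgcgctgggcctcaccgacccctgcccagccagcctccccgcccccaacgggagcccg

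Ccne1: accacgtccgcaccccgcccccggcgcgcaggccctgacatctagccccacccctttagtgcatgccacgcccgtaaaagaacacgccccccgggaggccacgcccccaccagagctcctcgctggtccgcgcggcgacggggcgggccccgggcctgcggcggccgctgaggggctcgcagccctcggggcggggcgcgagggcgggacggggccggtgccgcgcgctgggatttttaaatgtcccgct

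In Mcm6 and in Mcm5, 1 match on each strand overlapped in a shared run of capitals, and Mcm6 held 1 more nearer the start. Over the whole windows, E2F-type matches stood in 5 of the 8 genes with a window, Mcm3, Mcm5, Mcm6, Mcm7 and Cdc6, against 2.26% of 32851 promoters in the same table. Neither Ung nor Ccne1 held these letters in its window. The letters CCAAT, on either strand, stood in 5 of the 8 genes and in 37.4% of all promoters. The GC box letters GGGCGG stood in 6 of the 8 and in 35.7% of all, among them Ccne1 with 4 and Ung with 2 matches, and the letters TTTGAA in 1 of the 8 and in 17.9% of all. A match is a run of letters and not evidence of binding, and a window without one says only that these letters are not in it.

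After barcodes with 10% or more mitochondrial UMIs were left out, 2020 of 2396 barcodes were kept after TAK-981 and 2455 of 2579 after vehicle. A20 cells, with at least 1 Cd79a UMI and no Cd3d, Cd3e, Cd3g or Lyz2 UMI, numbered 1754 after TAK-981 and 2191 after vehicle. T cells, with at least 2 Cd3 UMIs, numbered 45 after TAK-981 and 60 after vehicle, and myeloid cells, with at least 5 Lyz2 UMIs, 39 and 44. The median UMIs per cell were lower after TAK-981 in every class, at 16195 against 22309 in A20 cells, 7156 against 9068 in T cells and 8287 against 10636.5 in myeloid cells. All 9 B cell markers were detected in the A20 class of both libraries, with 3288 and 3134 CPM (UMIs of a gene or list for each 1000000 UMIs summed over the class). Host B cells pass the same gate. Xist had a UMI in 84.4% and 90% of T cells but in 0.513% of A20-class cells after TAK-981 and in 1.00% after vehicle. All 10 T cell markers were detected in the T class, with 3663 CPM after TAK-981 and 3197 CPM after vehicle, but B cell markers reached 708 and 1118 CPM there, and 6 of 45 and 13 of 60 T cells carried at least 5 B cell marker UMIs. In the myeloid class the monocyte/macrophage markers reached 33251 and 33395 CPM. The libraries shared 11 barcodes, of which 11 and 10 fell in a class.

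In A20 cells the members were on the whole lower after TAK-981. Their summed level was 797 CPM (95% interval 788 to 807; 25886 UMIs) after TAK-981 and 971 CPM (963 to 979; 51476 UMIs) after vehicle, a log2 ratio of -0.28 (-0.31 to -0.26). Of the 10 members 9 had a ratio below 0 and Ccne2 one above it, with a median of -0.26 against 0.06 over the 12250 genes with at least 10 UMIs. The differences were small: 3 of 10 members, Mcm5, Mcm6 and Ung, were at least 20% lower after TAK-981, against 7.07% of all genes, and 0 of 10 at least 25% higher, against 19.3% (the same limit on the log scale). At 2-fold, 0 of 10 members were lower or higher, against 1.5% of all genes lower and 3.46% higher. Among cells with 10000 to 30000 UMIs, a range chosen after seeing the data because TAK-981 cells had fewer UMIs, the log2 ratio of the sum was -0.17 (-0.21 to -0.14) and 0 of 10 members were 20% lower, while Ccne2 was at least 25% higher (0.53, 0.32 to 0.75). Mcm6 (-0.318) and Mcm5 (-0.314) fell just short of 20% lower in that range. Over all A20 cells, scaling by the median of gene ratios in place of the class sum gave -0.34 for the sum. By that scaling 5 of 10 members were 20% lower, with Mcm3 and Cdc6 added.

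**Figure D1:**
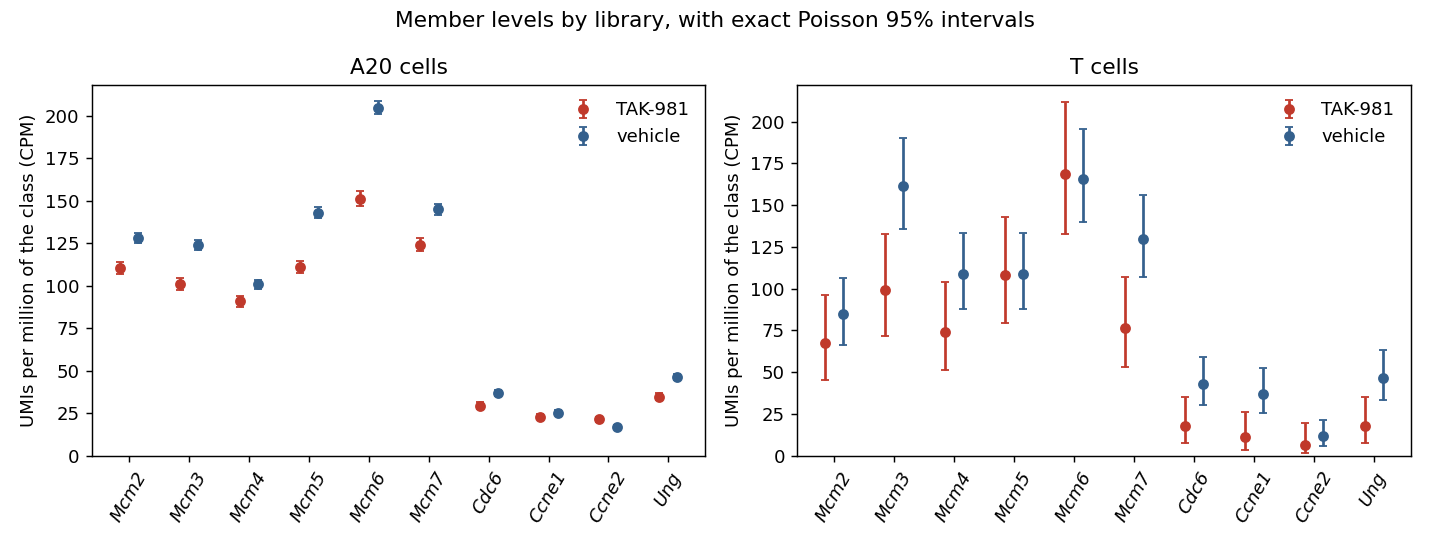
Levels of the 10 genes in A20 cells (left) and T cells (right), in CPM, with exact Poisson 95% intervals; 1 point per library, TAK-981 left of vehicle. In A20 cells 9 genes lie lower after TAK-981 and Ccne2 higher, by small steps with narrow intervals, while in T cells the intervals are wide.

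Among the helicase subunits, Mcm6 had 151 CPM in TAK-981 A20 cells (4911 UMIs) and 205 CPM in vehicle A20 cells (10846 UMIs), a log2 ratio of -0.44 (-0.48 to -0.39). Mcm5 had 111 CPM after TAK-981 and 143 CPM after vehicle, a log2 ratio of -0.36 (-0.42 to -0.31). Mcm3 had 101 CPM after TAK-981 and 124 CPM after vehicle, a ratio of -0.30 (-0.36 to -0.24). These 3 subunits were the lowest of the ring relative to vehicle. Mcm7 had 124 CPM after TAK-981 and 145 CPM after vehicle (-0.23, -0.28 to -0.17). For Mcm2 the levels were 110.5 CPM after TAK-981 and 128 CPM after vehicle (-0.21, -0.27 to -0.15). Mcm4 stood closest to vehicle, at 90.9 CPM after TAK-981 and 101 CPM after vehicle (-0.15, -0.22 to -0.09). The 6 subunits, which work as one ring, thus all lay lower after TAK-981, with ratios that ran from -0.44 to -0.15, and together had 689 CPM after TAK-981 against 845 CPM after vehicle.

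Cdc6, which helps load the ring, had 29.4 CPM after TAK-981 and 36.8 CPM after vehicle, a log2 ratio of -0.32 (-0.43 to -0.21), just short of 20% lower. Its ratio was -0.13 (-0.41 to 0.15) when every cell was thinned to 4000 UMIs and -0.028 (-0.20 to 0.15) among cells with 10000 to 30000 UMIs, both intervals that include 0. Leaving out the barcodes shared by the libraries brought the number of members 20% lower to 4. The cyclins E went apart. Ccne1 had 23.1 CPM after TAK-981 and 25.4 CPM after vehicle (-0.14, -0.27 to -0.01), and its ratio was 0.033 when every cell was thinned to 4000 UMIs and 0.044 among cells with 10000 to 30000 UMIs, so its direction was not fixed. Ccne2 had 21.4 CPM (696 UMIs) after TAK-981 and 17.2 CPM (912 UMIs) after vehicle, a ratio of 0.32 (0.17 to 0.46), the only member higher after TAK-981. Ung had 34.8 CPM (1131 UMIs) after TAK-981 and 46.4 CPM (2461 UMIs) after vehicle, a ratio of -0.41 (-0.52 to -0.31).

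**Figure D2:**
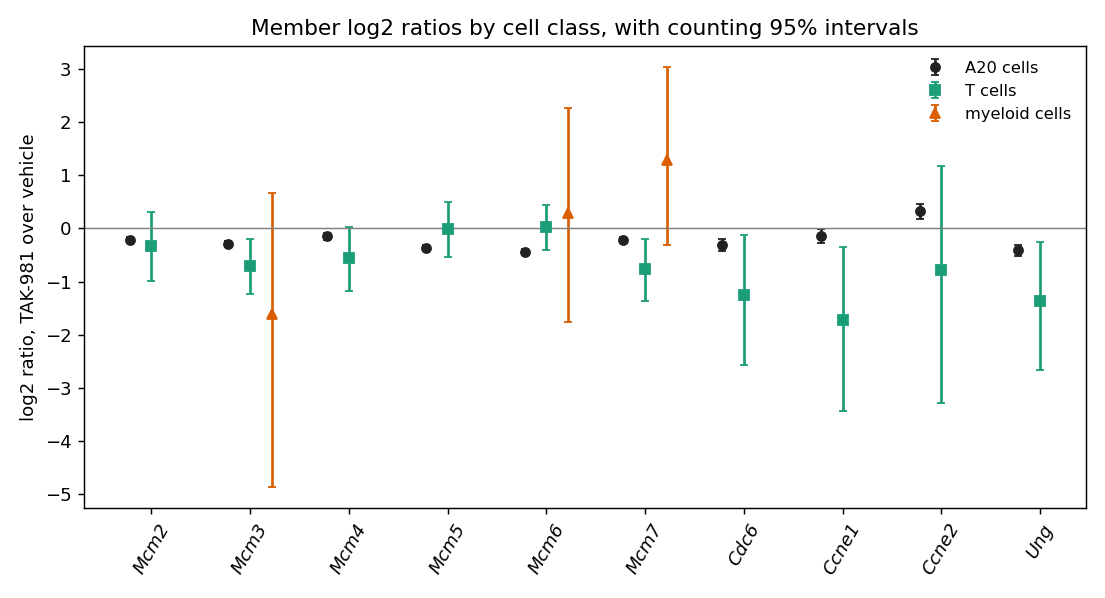
Log2 ratio of TAK-981 over vehicle for each gene in A20 cells, T cells and myeloid cells, with counting 95% intervals; genes with under 10 UMIs in a class are not drawn. The A20 ratios run from -0.44 for Mcm6 to 0.32 for Ccne2; the T cell ratios spread from -1.72 for Ccne1 to 0.02 for Mcm6.

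Per cell, the difference lay partly in how many cells carried a transcript and partly in how many copies those cells carried. After every cell was thinned to 4000 UMIs, so that depth was equal, 79.0% (77.0 to 80.9) of A20 cells carried a UMI of at least 1 member after TAK-981 and 84.2% (82.6 to 85.7) after vehicle. Unthinned, the shares were 92.6% and 96.7%. The median cell carried 2 member UMIs after TAK-981 and 3 after vehicle, and 13.1% and 16.7% of cells carried at least 5 different members. Among cells with 10000 to 30000 UMIs the difference in share was -0.73 percentage points (-4.28 to 2.80), an interval that includes 0. Without thinning, the cell with most member UMIs held 0.796% of them after TAK-981 and 0.338% after vehicle, so no single cell set these sums.

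Mcm6 had a thinned UMI in 37.8% of TAK-981 A20 cells and 45.9% of vehicle A20 cells. Positive cells then held 1.48 and 1.64 of them, or, without thinning, 4.10 ± 4.01 and 6.06 ± 5.45 UMIs (SD over cells). Mcm5 had one in 29.4% of TAK-981 cells and 36.6% of vehicle cells. For Mcm6 the level within positive cells was lower as well as the share, and for Mcm5 the step was mainly in the share, with 1.42 thinned UMIs per positive cell after TAK-981 and 1.48 after vehicle. Ung had a thinned UMI in 9.52% of TAK-981 cells and 13.1% of vehicle cells, with 1.21 and 1.28 UMIs per positive cell. Ccne2 had one in 7.53% of TAK-981 cells and 5.84% of vehicle cells, with 1.22 and 1.12 UMIs per positive cell. For Mcm2 the shares were 32.8% and 34.4%, for Ccne1 7.24% and 6.98%. The intervals of the shares overlapped for both, and for Mcm4, Cdc6 and Ccne2. The other shares ran from 8.89% to 32.3% after TAK-981 and from 10.1% to 37.1% after vehicle. No class should lack these genes, and what free RNA added to the shares was not measured. The lowest shares with any member at 4000 UMIs, which may include free RNA, were those of myeloid cells. They were 15.4% (5.9 to 30.5) after TAK-981, 6 of 39 cells, and 25% (13.2 to 40.3) after vehicle, 11 of 44 cells.

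**Figure D3:**
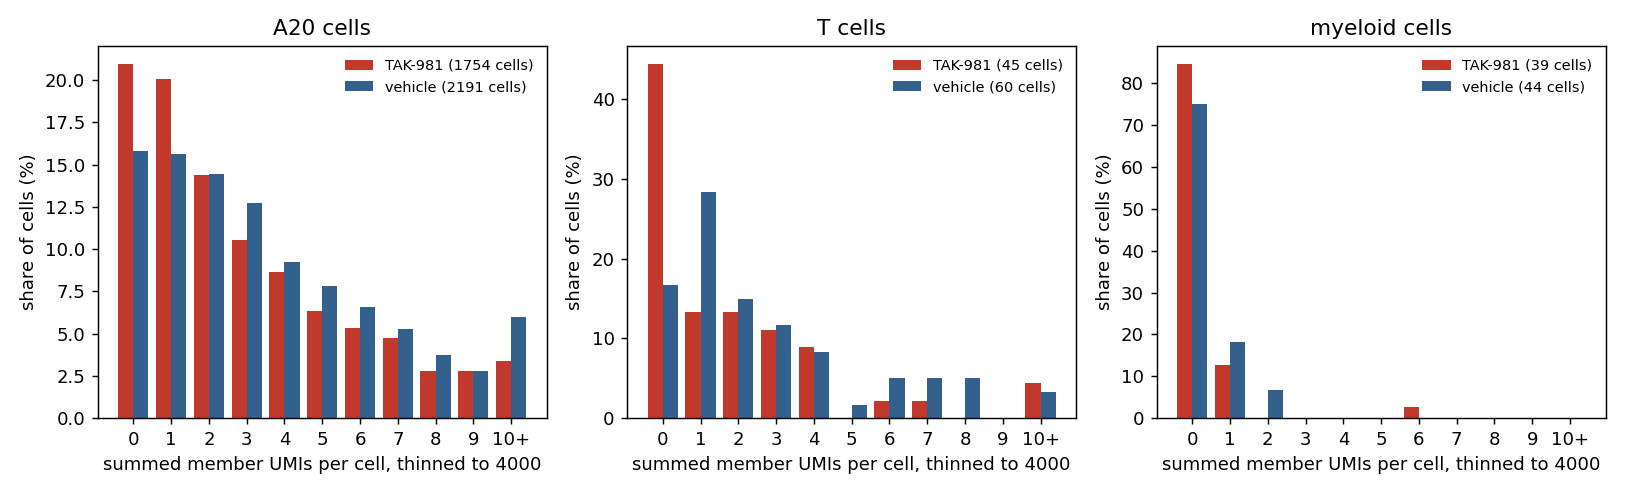
Share of cells (%) by the number of member UMIs per cell after thinning to 4000 UMIs, in A20, T and myeloid cells, TAK-981 left of vehicle in each pair of bars. Cells without a member UMI make up 21.0% of A20 cells after TAK-981 and 15.8% after vehicle, and most myeloid cells in both libraries.

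Member levels varied with the UMI total of the cell. In A20 cells under 10000 UMIs the sum was 679 CPM after TAK-981 (491 cells) and 890.0 CPM after vehicle (363 cells), a log2 ratio of -0.39. From 10000 to 20000 UMIs it was 691 and 780 CPM (-0.17), and from 20000 to 30000 UMIs 773 and 857 CPM (-0.15). From 30000 to 50000 UMIs it was 943 CPM after TAK-981 (271 cells) and 1126 CPM after vehicle (592 cells), a ratio of -0.26. From 50000 UMIs up, 18 TAK-981 cells had 938 CPM, of which 1 cell held 20.3% of the UMIs, and 91 vehicle cells 966 CPM (-0.04, -0.14 to 0.06). Mcm2, Mcm5, Mcm6, Mcm7 and Ung had a ratio below 0 in all 5 ranges. Their intervals lay wholly below 0 in fewer, in 3 ranges for Mcm2, 2 for Mcm7 and 4 each for Mcm5, Mcm6 and Ung. The ratio of Mcm3 was below 0 in 4 of 5 and that of Mcm4 in 3, with 0.40 (0.11 to 0.68) for Mcm4 from 50000 UMIs up. Ccne2 was above 0 in 4 of 5, while Cdc6 was below 0 in 2 and Ccne1 in 3. Cells under 20000 UMIs made up more of the TAK-981 than of the vehicle A20 cells, 28.0% against 16.6% in the lowest range and 34.7% against 27.5% in the next. The part that cell size, depth or cell loss played in this was not tested.

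**Figure D4:**
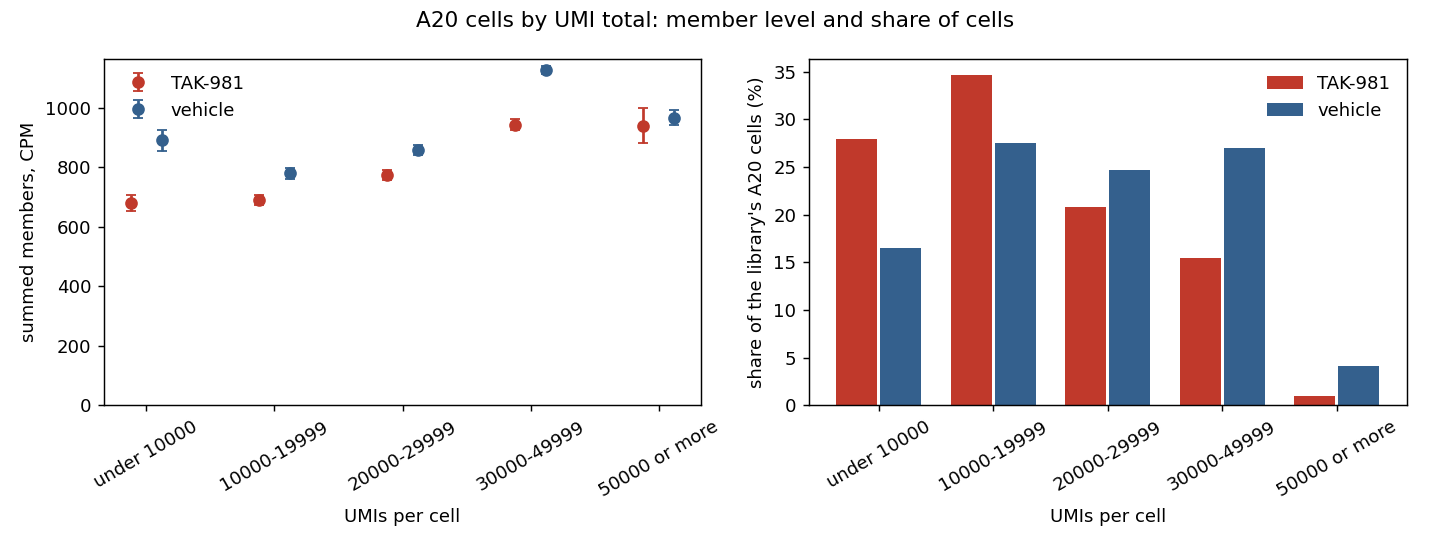
Left, summed level of the 10 genes in A20 cells (CPM, exact Poisson 95% intervals) in 5 ranges of UMIs per cell; right, share of each library's A20 cells (%) in each range, TAK-981 left of vehicle. The level is lower after TAK-981 in every range, by a log2 ratio of -0.04 to -0.39, and the TAK-981 library holds more cells of few UMIs.

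Because these genes follow the cell cycle, A20 cells of both libraries were ordered together by thinned UMIs of a list of replication fork and nucleotide supply genes that holds no member, and divided into a lower, a middle and an upper range. These are ranges of a score and not phases, and 327 TAK-981 and 460 vehicle cells lay near a limit between them. The summed members were 286 CPM after TAK-981 and 359 CPM after vehicle in the lower range (-0.33, -0.39 to -0.26). In the middle range they were 708 and 830 CPM (-0.23, -0.27 to -0.19). In the upper range they were 1395 CPM after TAK-981 and 1512 CPM after vehicle (-0.12, -0.14 to -0.09). Their sum was thus lower after TAK-981 in all 3 ranges, least so in the cells with most replication transcripts. The upper range held 29.8% of TAK-981 and 35.9% of vehicle A20 cells, the lower range 39.2% and 32.2%.

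Within the upper range, Ccne2 had 44.2 CPM after TAK-981 and 30.3 CPM after vehicle (0.54, 0.37 to 0.72), and Mcm6 had 252 and 301 CPM (-0.26, -0.32 to -0.19). Ung had 65.9 CPM after TAK-981 and 78.6 CPM after vehicle (-0.25, -0.38 to -0.13). Mcm4 (-0.02, -0.11 to 0.07), Mcm7 (-0.06, -0.13 to 0.01), Cdc6 (-0.11, -0.24 to 0.02) and Ccne1 (0.05, -0.10 to 0.20) had intervals that include 0 there. The genes also differed in how sharply they followed the fork list. Cdc6 was 26.5 times as high in the upper as in the lower range after TAK-981 and 12.9 times after vehicle, Ccne1 13.5 and 10.1 times, and Mcm2 only 2.92 and 2.87 times. The Cdc6 values rest on few molecules in the lower range. It held 27 Cdc6 UMIs after TAK-981 (2.48 CPM, 1.63 to 3.60) and 80 after vehicle (5.49 CPM, 4.35 to 6.83). Ordered by a G2/M list instead, Ung was the one member lower in the upper than in the lower range, at 0.438 times after TAK-981 and 0.37 times after vehicle. By the G2/M list the summed members had 469 CPM after TAK-981 and 647 CPM after vehicle in the lower range (-0.46), 1156 and 1327 CPM in the middle range (-0.20), and 828 and 879 CPM in the upper range (-0.09).

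**Figure D5:**
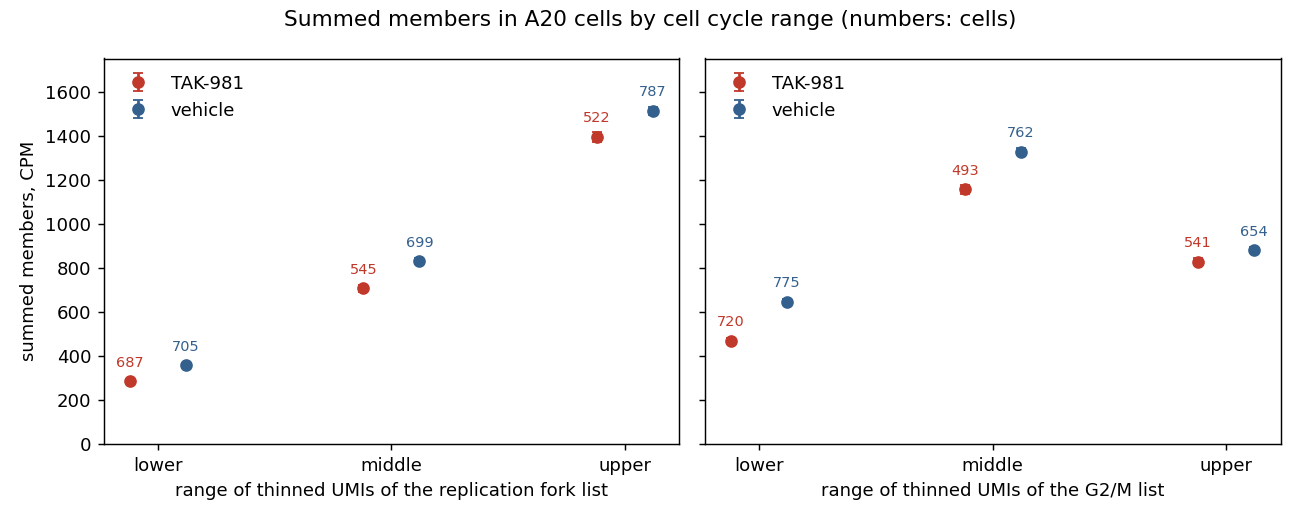
Summed level of the 10 genes (CPM, exact Poisson 95% intervals, mostly smaller than the points) in A20 cells in 3 ranges of replication fork list UMIs (left) and G2/M list UMIs (right); numbers above points are cells. Points after TAK-981 lie below vehicle in every range, by less in the upper ranges.

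Genes that work beside the members were read from gene lists, which were put together with earlier results of these data known. In A20 cells the origin licensing list (origin recognition complex, Cdt1 and partners) had 0 of 9 genes past either limit. Of all genes, 7.07% were at least 20% lower and 19.3% at least 25% higher. The list had a median log2 ratio of -0.10, against 0.06 over all genes. Gmnn, the inhibitor of Cdt1, had 100.5 CPM after TAK-981 and 121 CPM after vehicle (-0.27), and Orc4 45.6 and 38.0 CPM (0.26). Of 17 origin firing genes 0 passed a limit (median -0.07), with Cdc45, which joins the helicase at firing, at 38.5 CPM after TAK-981 and 46.7 CPM after vehicle (-0.28). The 31 replication fork and nucleotide supply genes had a median of -0.18. Of these, 2 were at least 20% lower, near the 7.07% of all genes, and 0 were 25% higher, against 19.3%. Those 2 were Tk1, a thymidine kinase, with 41.4 CPM after TAK-981 and 54.2 CPM after vehicle (-0.39), and Chaf1b, a histone chaperone subunit (-0.37). The sum of the fork list was 2484 CPM after TAK-981 and 2777 CPM after vehicle (-0.16), that of the G2/M list 1955 and 1927 CPM (0.02). Among A20 cells with 10000 to 30000 UMIs the licensing list had a ratio of 0.07 (0.03 to 0.11), against -0.03 over all A20 cells, the fork list one of -0.08 (-0.09 to -0.06) and the G2/M list 0.15 (0.12 to 0.17). The summed members lay further below vehicle than the fork list over all A20 cells (-0.28) and in this range (-0.17), a difference that was not tested.

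Upstream of the members, 3 of 13 E2F and RB family genes were at least 25% higher in A20 cells, near the 19.3% of all genes, and 0 were 20% lower, against 7.07%. Those 3 were Rb1 (4.71 and 3.64 CPM, 0.37, 0.06 to 0.69), Rbl2 (7.15 and 5.45 CPM, 0.39, 0.13 to 0.64) and E2f7 (0.34). Rb1 and Rbl2 hold E2F back, and E2f7 is a repressor of E2F targets. The list as a whole did not lie higher, with 321 CPM after TAK-981 and 334 CPM after vehicle (-0.06, -0.09 to -0.02). Its median ratio was 0.003, against 0.06 over all genes, with 6 genes below 0 and 7 above. E2f1 had 7.58 CPM after TAK-981 and 9.17 CPM after vehicle (-0.27, -0.50 to -0.05), and the ratios of the other activators, E2f2 and E2f3, were 0.14 and 0.22, that of the repressor E2f8 -0.04. Among 17 G1 cyclins, kinases and inhibitors, 2 were at least 20% lower and 3 at least 25% higher, against the same 7.07% and 19.3% of all genes. The number higher was near that share, and 8 of the 17 genes had a ratio below 0 and 9 above. Ccnd3, cyclin D3, had 130.02 CPM after TAK-981 and 172 CPM after vehicle (-0.40), and Cdkn1b, the inhibitor of cyclin E with Cdk2, had 21.3 and 15.6 CPM (0.45, 0.30 to 0.60). The other higher genes were Cdkn2d (0.41) and Fbxw7 (0.35), a part of the ligase that marks cyclin E for breakdown, and the other lower gene was Ccnd1 with 5 and 15 UMIs. Cdkn2a, an inhibitor with more UMIs than these, lay below 0, at 258 CPM after TAK-981 and 301 CPM after vehicle (-0.22, -0.26 to -0.19). Of 11 uracil and base excision repair genes, which work with or beside Ung, 0 were 20% lower, and their sum was 597 CPM after TAK-981 and 613 CPM after vehicle (-0.04). By the same limits, 3 of 11 p53 target genes were higher, against 19.3% of all genes, and 1 was lower, against 7.07%. The higher ones were Trp53inp1, at 16.7 CPM after TAK-981 and 11.6 CPM after vehicle (0.53), Gadd45a (0.51) and Pmaip1 (0.47). Phlda3, the lower one, had 14 and 39 UMIs. Bbc3, within the limits, had 60.1 CPM after TAK-981 and 66.7 CPM after vehicle (-0.15). The p53 list as a whole had 649 CPM after TAK-981 and 660 CPM after vehicle (-0.02), with 5 genes below 0 and 6 above. Of 23 G2/M genes 1 was higher and 0 were lower by these limits, Mki67, with 274 CPM after TAK-981 and 214 CPM after vehicle (0.36).

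The genes whose counts followed the summed members most closely from cell to cell were sought among 5864 genes in A20 cells thinned to 4000 UMIs. They were Dut, which keeps uracil out of DNA by breaking down dUTP (Pearson r 0.46 after TAK-981 and 0.48 after vehicle), 2810417H13Rik (0.46 and 0.49), Ptma (0.44 and 0.49), H2afz (0.43 and 0.41) and Stmn1 (0.40 and 0.45). These are correlations over cells of 1 library each and describe those libraries only. Each member followed the sum of the other 9 with r from 0.21 to 0.37 over 1754 TAK-981 cells and from 0.13 to 0.38 over 2191 vehicle cells. Mcm5 followed it most closely and Ccne2 least in both libraries. Sparse counts lower r, and Ccne2 had a thinned UMI in only 7.53% of TAK-981 and 5.84% of vehicle A20 cells. Of A20 cells with a thinned Ccne1 UMI, 22.8% also carried a Ccne2 UMI after TAK-981 and 13.7% after vehicle, against 6.33% and 5.25% of the cells without Ccne1.

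In T cells the summed members were lower after TAK-981 over all cells. In a middle range of UMIs per cell the ratio was above 0, with an interval that includes 0. The sum was 648 CPM (575 to 727; 288 UMIs) in 45 TAK-981 T cells and 897 CPM (835 to 963; 774 UMIs) in 60 vehicle T cells, a log2 ratio of -0.47 (-0.67 to -0.27). Among T cells with 5000 to 15000 UMIs, a range chosen after seeing the data, 29 TAK-981 and 41 vehicle cells gave a ratio of 0.24 (-0.08 to 0.57). The sign was opposite, but a single cell held 22.9% of the 144 member UMIs after TAK-981 there, and 12.4% of 178 after vehicle. By range, the sum was 266 CPM after TAK-981 (22 cells) and 172 CPM after vehicle (10 cells) under 7000 UMIs, with 31 and 11 UMIs in all. It was 576 and 604 CPM from 7000 to 12000 UMIs (14 and 28 cells), and 917 and 1104 CPM above that (9 and 22 cells, -0.27, -0.51 to -0.03). Cells under 7000 UMIs made up 48.9% of TAK-981 and 16.7% of vehicle T cells, and member levels were lowest in them in both libraries.

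At 4000 UMIs per cell, 55.6% (40.0 to 70.4) of TAK-981 T cells and 83.3% (71.5 to 91.7) of vehicle T cells carried a member UMI. At 1000 UMIs per cell the shares were 42.2% and 43.3%, a difference of -1.11 percentage points, and unthinned they were 68.9% and 91.7%. The thinned shares thus differed at one depth and hardly at the other. The T cells with and without a Cd8a UMI had different ratios, a difference that was not tested: without it, 28 TAK-981 cells had 568 CPM and 30 vehicle cells 993 CPM (-0.81, -1.08 to -0.54), and with it, 17 and 30 cells had 766 and 798 CPM (-0.06, -0.36 to 0.23). A cell without a Cd8a UMI may still be a CD8 T cell at this depth, and NK markers were seen in 10 of 45 and 15 of 60 T cells, with 344 CPM after TAK-981 and 111 CPM after vehicle. Without those cells the ratio of the sum was -0.35 (-0.57 to -0.13). Without the T cells that carried 5 or more B cell marker UMIs, the ratio of the sum was -0.51 (-0.76 to -0.25), with 575 CPM after TAK-981 and 818 CPM after vehicle.

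Of the 10 members in T cells, 3 were at least 2-fold lower, Cdc6, Ccne1 and Ung, against 9.32% of 7868 genes, and 0 at least 2-fold higher, against 6.32%. Ccne1 had 5 UMIs (11.2 CPM) after TAK-981 and 32 UMIs (37.1 CPM) after vehicle, a log2 ratio of -1.72 (-3.44 to -0.35). Ung had 8 UMIs (18.0 CPM) after TAK-981 and 40 UMIs (46.4 CPM) after vehicle (-1.37, -2.67 to -0.25). Cdc6 had 8 UMIs (18.0 CPM) after TAK-981 and 37 UMIs (42.9 CPM) after vehicle (-1.25, -2.57 to -0.13). These 3 genes rest on few molecules, and a single cell held 37.5% of the Cdc6 UMIs after TAK-981 and 21.6% after vehicle. Among T cells with 5000 to 15000 UMIs, 0 members were 2-fold lower.

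The helicase subunits in T cells had wide intervals that overlapped, and differences between them were not tested. Mcm7 had 76.5 CPM (34 UMIs) after TAK-981 and 130 CPM (112 UMIs) after vehicle (-0.76, -1.36 to -0.20), and Mcm3 98.9 CPM (44 UMIs) and 161 CPM (139 UMIs; -0.70, -1.23 to -0.21). Mcm6, the subunit furthest below vehicle in A20 cells, had 169 CPM (75 UMIs) after TAK-981 and 166 CPM (143 UMIs) after vehicle in T cells (0.02, -0.40 to 0.44). Mcm5 had 108 and 109 CPM (-0.01, -0.55 to 0.50). Over the alternatives tried, Mcm5 ran from -0.65 to 0.74 and Mcm6 from -0.37 to 0.94. Mcm4 (-0.55, -1.17 to 0.03), Mcm2 (-0.33, -0.99 to 0.30) and Ccne2 (3 and 10 UMIs; -0.78, -3.28 to 1.18) were not separated from vehicle at this depth. The subunits together had 594 CPM after TAK-981 and 759 CPM after vehicle (-0.36), the other 4 members 54.0 and 138 CPM (-1.35, -2.05 to -0.71).

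Around the members in T cells, all 9 origin licensing genes had a ratio below 0 (median -0.50 against -0.04 over all genes), none of them 2-fold; Cdt1, the loading factor, had 15 and 51 UMIs (33.7 CPM after TAK-981 and 59.1 CPM after vehicle). Over all 7868 genes in T cells, 9.32% were 2-fold lower and 6.32% 2-fold higher. Of 31 replication fork genes 26 were below 0 and 0 were 2-fold lower, and their sum was 2282 CPM after TAK-981 and 2767 CPM after vehicle (-0.28). The G2/M list had 17 of 23 genes above 0, 1 of them 2-fold (Prc1, 26 and 23 UMIs), and a sum of 2514 CPM after TAK-981 and 1978 CPM after vehicle (0.35, 0.24 to 0.46). Of 11 E2F and RB family genes 3 were 2-fold lower. They were E2f1 with 1 UMI after TAK-981 and 14 after vehicle (-2.85, -8.25 to -0.14), E2f3 with 2 and 9, and Tfdp2 with 5 and 22. The interval of E2f3 (-1.21, -4.46 to 1.06) includes 0. Of 15 G1 cyclins, kinases and inhibitors 3 were 2-fold higher, among them Cdkn1a, the p53 target that inhibits Cdk2, with 32 UMIs (72.0 CPM) after TAK-981 and 18 UMIs (20.9 CPM) after vehicle (1.79, 0.91 to 2.71), with Cdkn2c at 28 and 22 UMIs (1.30) and Ccnd2 at 104 and 92 UMIs (1.13). A single TAK-981 cell held 50% of the Cdkn1a UMIs, and a single cell 39.3% of the Cdkn2c UMIs. Of 9 uracil and base excision repair genes 7 were below 0, and their sum was 299 CPM after TAK-981 and 409 CPM after vehicle (-0.45, -0.75 to -0.16). Of 16 origin firing genes 1 was 2-fold lower, Mcm8, against 9.32% of all genes. Of 10 p53 targets Bbc3 was lower by this limit, and Cdkn1a and Trp53inp1 were higher, against 6.32% of all genes.

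The replication fork, licensing, origin firing and E2F and RB family lists had sums of the opposite sign in the same range of UMIs as the members. Among T cells with 5000 to 15000 UMIs the fork list had 2235 CPM after TAK-981 and 1504 CPM after vehicle (0.57, 0.39 to 0.75), opposite in sign to the ratio over all T cells. A single cell held 16.1% of the fork list UMIs after TAK-981 and 15% after vehicle. The origin firing list had 512 and 347 CPM (0.56, 0.19 to 0.94), the licensing list 292 and 214 CPM (0.45, -0.05 to 0.94), and the E2F and RB family list 284 and 275 CPM (0.05, -0.43 to 0.51). The G2/M list kept its sign, with 2429 CPM after TAK-981 and 1322 CPM after vehicle (0.88, 0.70 to 1.06). A single cell held 23.0% of the G2/M UMIs after TAK-981 and 30.6% after vehicle, which the counting intervals do not take into account. The uracil and base excision repair list also kept its sign, with 224 and 301 CPM (-0.42, -0.93 to 0.07).

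Myeloid cells held few member transcripts in either library. The sum was 85.4 CPM (58.0 to 121; 31 UMIs) after TAK-981 and 73.0 CPM (51.9 to 99.9; 39 UMIs) after vehicle, a log2 ratio of 0.23 (-0.50 to 0.94), and 1 TAK-981 cell held 41.9% of its library's member UMIs. Without cells that carried 5 or more B cell marker UMIs, 36 TAK-981 cells had 85.2 CPM and 40 vehicle cells 40.7 CPM (1.07, 0.17 to 1.99, from 27 and 19 UMIs), and without the top cell of each library the ratio was -0.31. Only Mcm3, Mcm6 and Mcm7 reached 10 UMIs. Mcm3 was 2-fold lower (2 UMIs after TAK-981, 9 after vehicle) and Mcm7 2-fold higher (10 and 6), against 14.3% and 10.8% of 6417 genes. The intervals of Mcm3 (-4.86 to 0.66) and Mcm7 (-0.31 to 3.04) include 0, and a single TAK-981 cell held 50% of the Mcm7 UMIs. Ccne1 had no UMI in any myeloid cell, which allows a share of cells with a Ccne1 UMI of up to 7.69% of 39 TAK-981 cells and 6.82% of 44 vehicle cells and does not limit the cells expressing it. Ung had 0 UMIs after TAK-981 and 4 after vehicle, and Cdc6 4 and 0.

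The members' neighbours in myeloid cells were also sparse, and 6 of 9 licensing, 5 of 17 origin firing and 16 of 31 fork genes reached 10 UMIs. Over all 6417 genes in this class, 14.3% were 2-fold lower and 10.8% 2-fold higher. Of the 16 fork genes 2 were 2-fold lower and 2 higher, near those shares. Of 5 measured uracil and base excision repair genes 3 were 2-fold lower, Apex1, Xrcc1 and Parp1. They had 7, 1 and 6 UMIs after TAK-981 and 21, 13 and 21 after vehicle. Of 10 measured G1 cyclins, kinases and inhibitors 3 were 2-fold higher and 2 lower. Cdkn2d, an inhibitor of the D-type cyclin kinases, had 43 UMIs (118.5 CPM) after TAK-981 and 12 UMIs (22.5 CPM) after vehicle (2.40, 1.45 to 3.46), and Ccnd2, cyclin D2, 28 and 14 UMIs (1.56, 0.58 to 2.60).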

How the data were processed

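Single-cell RNA was measured in 2 libraries, 1 from TAK-981 and 1 from vehicle A20 tumours. The authors deposited, per the file headers, raw UMI counts for each gene in each barcode, as whole numbers without normalization. Cell Ranger 2.1.1 and Seurat 2 are named in the submitters' processing notes with no role. The build and gene models behind the counts were not given in the sources used here. The deposited barcodes held at least 4670 (TAK-981) and 5965 (vehicle) UMIs, so some selection of barcodes came before deposit. The libraries summed to 37470319 and 57471750 UMIs.

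From these counts, barcodes with a mitochondrial share of 10% or more (376 and 124) were left out, and cells were classed by marker UMIs as stated in the report. No cell in a class had under 200 genes. Cells in no class numbered 182 and 160. No doublet caller was run: the A20 gate bars Cd3 and Lyz2 UMIs, and T and myeloid cells with 5 or more B cell marker UMIs were left out as an alternative. UMIs were summed per class and library and divided by the class sum (CPM). Ratios are TAK-981 over vehicle, with exact conditional binomial 95% intervals, levels have exact Poisson intervals and shares Clopper-Pearson ones (also exact), and where no cell was positive the limit is 3 cells. For shares, 4000 UMIs were drawn from every cell without replacement, as all cells held more. With 1 library per arm no test was possible. Counts past a limit (20% lower or 25% higher, and 2-fold, in A20 cells, 2-fold in the others) cover genes whose UMIs in the 2 libraries sum to at least 10.

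The members, gene lists, markers and alternatives were chosen with earlier results of these data known. Named genes were the 10 members, from each list and class up to 2 genes lowest and 2 highest in ratio (in A20 cells with at least 100 UMIs), of which not all are printed, and the 5 genes most correlated with the members. Some genes of the lists are not reported here. Other genes past a limit (among them E2f7, Fbxw7, Pmaip1, Phlda3, Tfdp2 and Apex1) and the UMI ranges were picked after their values were seen. The alternatives changed the mitochondrial limit, the gates, the scaling, the thinning, the UMI minimum and the cells left out. Scripts used Python 3.11.15, matplotlib 3.10.9, pandas 2.3.3, numpy 2.4.6 and scipy 1.17.1 and were tested on simulated data. All 10 identifiers matched their symbols in the reference name table.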

Additional observations from a re-analysis of the deposited data

Results flagged for a closer look

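The summed members had log2 ratios of opposite sign in different cell classes. The ratio was -0.28 in A20 cells and 0.23 in myeloid cells, a difference of -0.51 between the classes. It was -0.47 in T cells, a difference of -0.70 from myeloid cells. Neither difference was tested, since there was 1 library per arm. The myeloid value rests on 31 UMIs after TAK-981 and 39 after vehicle, and its interval (-0.50 to 0.94) includes both other ratios. The T cell ratio took the opposite sign among cells with 5000 to 15000 UMIs, with an interval (-0.08 to 0.57) that includes 0.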

How the results depend on the processing

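No paired analysis was possible because there was 1 library per arm. In A20 cells the ratio of the sum stayed below 0 under all 10 alternatives (-0.34 to -0.17), but the number of members at least 20% lower was 5 with median-of-ratios scaling (sum -0.34) and 0 among cells with 10000 to 30000 UMIs (sum -0.17, share difference -0.73 percentage points). In that range Mcm6 (-0.318) and Mcm5 (-0.314) fell just short of 20% lower. The number at least 25% higher was 1, Ccne2, under 4 of 11 alternatives and 0 under the other 7. Median-of-ratios scaling moved every A20 log2 ratio by -0.06. Ccne1 had a ratio of 0.033 with cells thinned to 4000 UMIs and 0.044 among cells with 10000 to 30000 UMIs. In T cells the sum was below 0 under 15 of 16 alternatives and 0.24 (-0.08 to 0.57) among cells with 5000 to 15000 UMIs, where 0 members were 2-fold lower. It was -0.81 without and -0.060 with a Cd8a UMI. The count of members 2-fold lower was 5 with levels from thinned cells and 5 without cells carrying 5 or more B cell marker UMIs, and the share difference was -1.11 percentage points at 1000 UMIs. In myeloid cells the sum was 1.07 without cells carrying B cell marker UMIs, and 0 members were 2-fold lower there, with a mitochondrial limit of 5% and with thinned cells, against 2 with no minimum of UMIs. The UMI ranges, the Cd8a and Cd79a subsets and the removal of shared barcodes were chosen after seeing the data. The causes were not tested. Depth limits the T and myeloid values most, where most members rest on fewer than 50 UMIs in the TAK-981 library.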

Other observations

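Outside the 3 classes the members differed little between the libraries. The 182 TAK-981 and 160 vehicle cells in no class had 763 and 751 CPM of summed members, a log2 ratio of 0.02 (-0.08 to 0.13). Barcodes with a mitochondrial share of 10% or more, 376 after TAK-981 and 124 after vehicle, had 943 and 982 CPM (-0.06, -0.17 to 0.05). These barcodes, more frequent after TAK-981, thus carried the members at a level above the 797 CPM of the kept TAK-981 A20 cells. The 9 TAK-981 and 22 vehicle A20-class cells with a Xist UMI had 693 and 1006 CPM (-0.54, -0.81 to -0.27), and the A20-class cells without one 798 and 971 CPM (-0.28).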
